A study of Mus musculus with 7 samples.

Results

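The genes of the cytosolic ribosomal proteins were read by RNA-seq in 7 samples of hippocampus, taken from male mice of WT genotype whose strain the labels write as C57BL/6 and as C57BL6/J. The genes are those whose symbols name a protein of the cytosolic small subunit (Rps) or large subunit (Rpl), with Rpsa and the stalk genes Rplp0, Rplp1 and Rplp2, and without pseudogenes marked as such and the Rps6k kinases. Among 27583 genes, 84 met this rule, 32 of the small and 52 of the large subunit. The design names mice with an injured spinal cord and healthy ones, but no label says to which of these a sample belongs. All libraries therefore stand in 1 group, as replicates 1 to 7, and no comparison of injured with control animals was made. The labels give genotype (WT), sex and strain, but no age, and do not say outright that each library is a separate animal.

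The cytosolic ribosome reads messenger RNA on its small subunit and joins amino acids on its large subunit. Its proteins are needed in equal amounts, apart from the acidic stalk proteins, of which each ribosome holds several copies. In mammals the messenger RNAs of these proteins begin with a terminal oligopyrimidine (TOP) stretch, a run of C and U through which the mTOR kinase and the protein LARP1 set their translation. In neurons ribosomes also work in dendrites and axons, where some of these messenger RNAs are carried.

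A run of at least 8 pyrimidines (C or T) lay at a minority of the annotated starts. The starts of 8 abundant genes with such a run, sorted by level, are given as examples. They were chosen within part of the genome, so genes of similar or higher level with such a run may be missing. The start of Rpl22l1, the gene with the largest spread between libraries, is given last. Each line holds 10 bases before and 20 bases from the RefSeq start on, on the gene's strand in GRCm38.p6 (mm10), with the longest pyrimidine run in capitals.
Rpl13a: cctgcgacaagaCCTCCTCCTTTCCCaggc
Rps27: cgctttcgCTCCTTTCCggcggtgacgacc
Rpl35: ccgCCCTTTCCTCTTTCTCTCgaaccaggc
Rpl28: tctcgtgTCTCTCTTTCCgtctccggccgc
Rps26: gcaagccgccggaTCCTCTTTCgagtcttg
Rpl35a: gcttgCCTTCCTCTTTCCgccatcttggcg
Rps18: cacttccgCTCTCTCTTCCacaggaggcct
Rpl39: gctccgcctctagcgaCTTCTTCTaatcgc
Rpl22l1: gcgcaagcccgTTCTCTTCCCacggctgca
The windows lie at chr7:45128726-45128755 (Rpl13a), chr3:90213629-90213658 (Rps27), chr2:39005112-39005141 (Rpl35), chr7:4792955-4792984 (Rpl28) and chr10:128626487-128626516 (Rps26). Those of Rpl35a, Rps18, Rpl39 and Rpl22l1 lie at chr16:33056472-33056501, chr17:33955646-33955675, chrX:37085203-37085232 and chr3:28805498-28805527. Rpl28, Rpl35a and Rpl22l1 are on the plus strand and the others on the minus strand.

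Pyrimidine runs were more frequent at the starts of ribosomal protein genes than at those of other genes. RefSeq listed 75 starts for 63 of the 84 genes. A run of at least 8 pyrimidines lay in the 30-base window at 25 of the 75 starts (33.3%), against 11.3% of the 12259 starts of other genes with a median FPKM (fragments per kilobase of gene, scaled to the mapped total) of at least 1. On the opposite strand it lay at 3 of the 75 (4.0%), against 12%. The motif CTTTCC, which overlaps such runs, lay in the window at 10 starts (13.3%) on the gene's strand, against 1.19%, and at 0 on the other strand, against 1.06%. Of motifs searched on both strands in the 300 bases around the start, CTTCCG, the core of ETS factor sites, was at 60.0% of the starts, against 29.3% elsewhere. CCATCTT, the core of YY1 sites, was at 16.0%, against 7.1%. GGGCGG, the Sp1 core, was at 58.7%, against 63.0%, and TATAAA at 10.7%, against 6.86%. These matches are descriptions of letters, and RefSeq starts can lie several bases from the start used in this tissue.

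Ribosomal protein genes were among the most abundant messages of the hippocampus. Of the 84 genes 81 had a median of at least 1 FPKM, 69 of at least 100, and 74 stood among the 1000 highest genes of the table. The median of the 81 was 219 FPKM, against 8.33 over the 12052 genes kept at the same minimum. Together the 84 took 5.48% to 6.22% of all FPKM in a library, lowest in replicate 4 and highest in replicate 3. With the mitochondrially encoded genes left out of the total, the share was 6.28% in replicate 4 and 6.67% to 7.34% elsewhere. In bulk tissue, fewer cells of a type and less RNA per cell cannot be told apart.

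The highest level belonged to Rplp1, which encodes an acidic stalk protein of the large subunit. It had 979, 1084, 1139, 887, 1094, 1003 and 1005 FPKM in replicates 1 to 7. Rps29, a small zinc-binding protein of the small subunit, came next with a median of 757 (681 to 888). Rpl41, which encodes the shortest protein of the ribosome, had a median of 728 (587 to 780.4). The order of these 3 was the same in 7 of 7 libraries, although their ranges overlapped. Rps15 of the small subunit (450.5 to 565) and Rpl3, which lies near the peptidyl transferase centre (457 to 571), followed. Their order changed between libraries, with Rps15 higher in 2 of 7.

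Far below in FPKM stood a few of the genes that met the naming rule. The lowest among genes with a median of at least 10 FPKM were Rpl7l1 (15.6 to 18.8), Rpl6l (17.0 to 19.8), Rps15a (29.0 to 35.4), Rps20 (30.7 to 40.0) and Rpl21 (37.9 to 45.5). Rps15a, Rps20 and Rpl21 encode integral proteins of the ribosome, while Rpl7l1 is known from ribosome assembly. The low rank of Rps20 depends on the gene length used, in GENCODE M21 3706 bases against a median of 704 over the genes kept. With GENCODE lengths its reads, estimated from FPKM, length and depth, had a median of 5226. Rps18, at a median of 263 FPKM, had 5421. The authors' lengths are not given here. Rpl6l and Rpl32l are processed pseudogenes in GENCODE M21, although their symbols met the rule. Between neighbours in the order of the 80 genes with a median of at least 10, the ranges over libraries overlapped in 75 of 79 cases, and 17 pairs kept their order in all 7 libraries. GENCODE M21 names 295 pseudogenes of ribosomal protein genes, and the table holds 9 rows with such names. How reads shared with these near-identical copies were counted is not given in the sources used here, so the level of each single gene is uncertain.

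**Figure D1:**
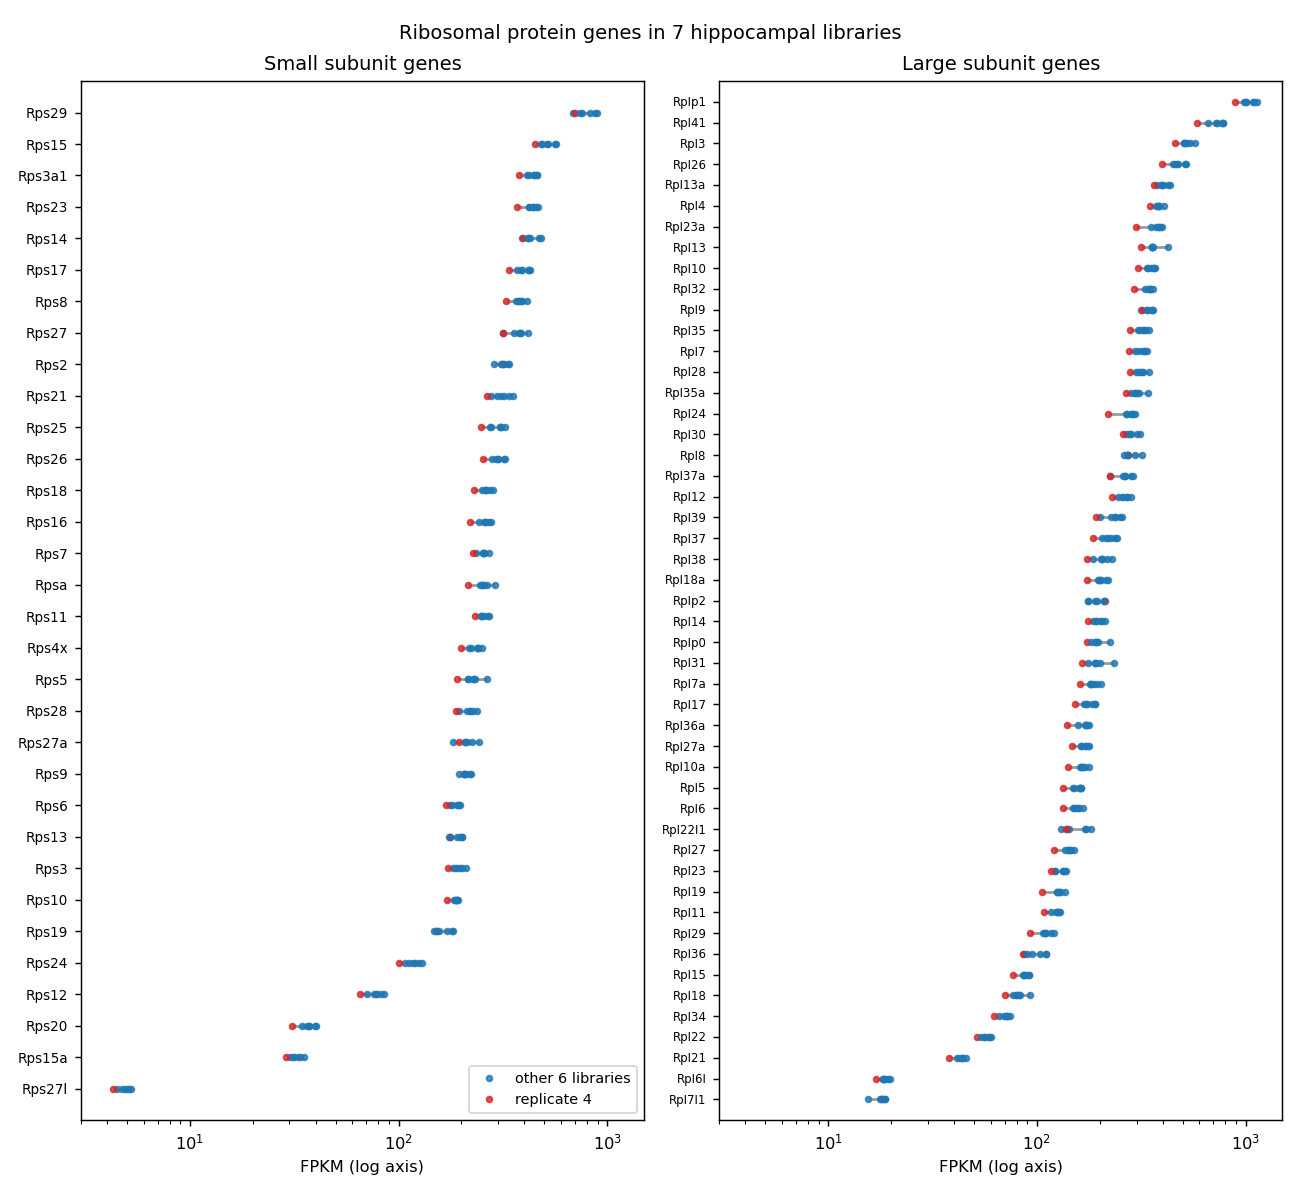
FPKM of the 81 ribosomal protein genes with a median of at least 1, on a log axis, with 1 point per library and a line from the lowest to the highest. Genes are sorted by median in each subunit, replicate 4 (red) is at the lower end of 67 lines, and 60 genes have a median between 100 and 400 FPKM.

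Small subunit genes stood slightly above large subunit genes. In each library the median over the 32 small subunit genes was above that over the 49 large subunit genes kept, with a ratio of 1.2 in replicate 3 to 1.35 in replicate 6 and a median of 1.24. The middle ranges overlapped widely: the quartiles of the gene medians were 190.4 and 331 FPKM for the small subunit and 141 and 319 for the large. A p-value is not given, since the genes are not replicates. FPKM rests on the authors' gene lengths, which are not given here.

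Of the stalk genes, Rplp1 was far above Rplp0 and Rplp2. The proteins Rplp1 and Rplp2 form dimers that bind Rplp0, and the stalk recruits translation factors. Rplp0, the anchor, had 195, 189, 223, 175, 182, 192 and 193 FPKM. Rplp2 had 175, 209.8, 193, 212, 209.6, 189 and 176, highest in replicate 4, where 67 other genes of the ribosome were lowest. The ratio of Rplp1 to Rplp2 was 4.19 in replicate 4 and 5.17 to 5.90 elsewhere. The difference on log2(FPKM + 1) was 2.39 ± 0.16 (SD, n = 7; higher in 7 of 7; exact sign-flip permutation test, two-sided, p = 0.0156, adjusted p = 0.0156 over 7 pairs). That p is the smallest that 7 libraries can give.

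Paralogs of ribosomal proteins differed widely in level. Rpl3l, a striated muscle form of Rpl3, had 0.0287 to 0.159 FPKM, against 457 to 571 for Rpl3. Rpl39l, a testis form of Rpl39, was listed at 0 in 4 libraries and reached 0.249 in replicate 2, against 191 to 257 for Rpl39. Rpl32l, the last of the 3 genes under 1 FPKM, had 0.132 to 0.362, against 291 to 360.3 for Rpl32. Rps27l, a target of p53, had 4.31 to 5.21 FPKM and was 66.6 to 84.8 times below Rps27. Rpl7l1 was 15.2 to 18.9 times below Rpl7, and Rpl6l 7.83 to 8.95 times below Rpl6. Rpl36al, which the naming rule leaves out, had 83.0 to 106 FPKM, and Rpl36a, its X-linked partner, was 1.65 to 1.89 times higher. In the 7 pairs tested the order was the same in 7 of 7 libraries, with p = 0.0156 in each by the exact sign-flip permutation test. An error in a gene's length would be alike in all libraries, so the test cannot detect it. The differences on log2(FPKM + 1) ran from 0.81 ± 0.08 for Rpl36a and Rpl36al to 8.86 ± 0.11 for Rpl3 and Rpl3l (SD, n = 7). For Rpl3l and Rpl39l, both near 0, the size of the difference rests on the 1 added to FPKM. With 0.1 added, the difference was 11.3 in place of 8.86 for Rpl3 and Rpl3l. For Rpl39 and Rpl39l it was 10.8 in place of 7.78. The FPKM ratio of Rpl3 to Rpl3l ran from 3211 to 17739. The pairs of Rpl6l and Rpl32l, the processed pseudogenes named above, were added after their values were seen and were not tested.

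In 1 pair the gene named as the like form was the higher in FPKM. Rpl22 encodes an RNA-binding protein of the large subunit, and in mouse cells the Rpl22 protein lowers the messenger RNA of its paralog Rpl22l1. Rpl22 (chr4:152325742-152334071, plus strand, mm10) had 55.7, 56.5, 59.0, 51.8, 54.1, 60.1 and 58.6 FPKM in replicates 1 to 7. Rpl22l1 (chr3:28805436-28807424, plus strand) had 130.3, 142, 139, 138, 182, 172 and 169.7. Rpl22l1 was thus above Rpl22 in FPKM in 7 of 7 libraries, with a difference on log2(FPKM + 1) of 1.42 ± 0.19 (SD, n = 7, exact sign-flip permutation test, p = 0.0156). This order rests on gene length, in GENCODE M21 2048 bases for Rpl22 and 538.5 for Rpl22l1. With these lengths the estimated reads were more for Rpl22, at a median of 4349 against 2881. The authors' lengths are not given here. The ratio of Rpl22l1 to Rpl22 ran from 2.34 in replicate 1 to 3.37 in replicate 5. Its 3 highest values were in replicates 5, 6 and 7 (3.37, 2.86 and 2.90), while Rpl22 itself ranged 1.16-fold. The labels name no difference between these libraries. The 8 oligodendrocyte markers were also highest there, with sums of 1696, 1621 and 1833 FPKM in replicates 5, 6 and 7 and 979 to 1238 in the others. Their part in the level of Rpl22l1 was not tested. At neither of the 2 listed starts of Rpl22 did the longest pyrimidine run pass 5 bases, against 10 at that of Rpl22l1 shown above.

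**Figure D2:**
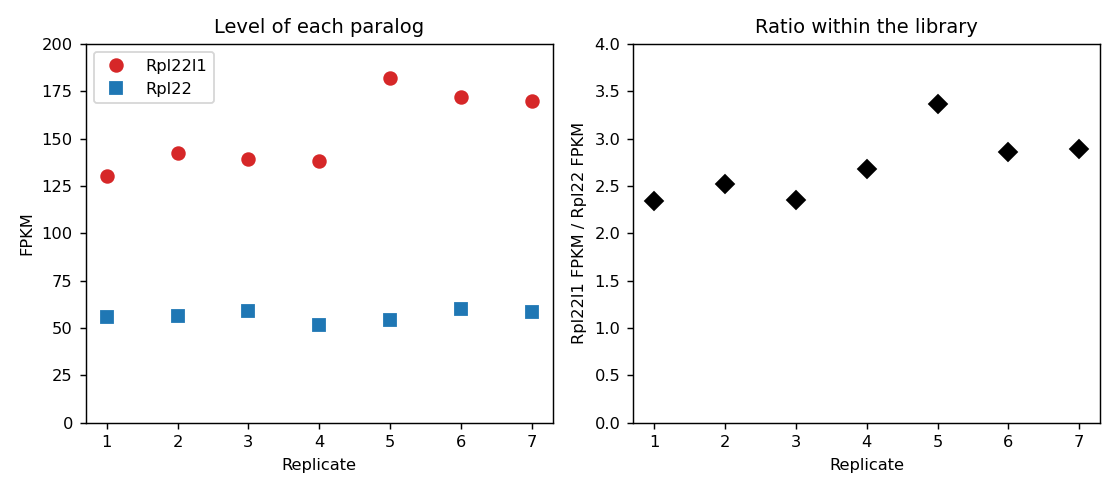
FPKM of Rpl22l1 and Rpl22 (left) and their ratio (right) in replicates 1 to 7, with 1 point per library and both vertical axes from 0. Rpl22l1 is above Rpl22 in each library, and the ratio runs from 2.34 in replicate 1 to 3.37 in replicate 5. Both depend on the gene lengths used for FPKM.

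The spread between libraries was close to that of other abundant genes. The SD of log2(FPKM + 1) had a median of 0.11 over the 81 genes, from 0.06 to 0.19, against 0.12 over the 12052 genes kept and 0.11 over the 465 other genes with a median of at least 100 FPKM. The highest library was 1.13 to 1.42 times the lowest, with a median of 1.25, and under 1.3 times in 61 genes. An estimate of reads, from a depth of about 37508000 to 38637200 per library, gives 83 for the lowest value of Rps27l. That is a counting error of 11.0%, for the gene with the lowest median of the 81. The lowest value of Rps15a comes to 714 reads, an error of 3.74%. For Rplp1 it gives 17104, an error of 0.765%.

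Rpl22l1 had the largest SD (0.19), followed by Rpl39, a small protein of the exit tunnel (0.16; 191 to 257 FPKM), and Rpl31, which lies near the exit (0.16). Rpl31 had 234 FPKM in replicate 5 and 165 to 199.8 elsewhere. Rpl36 ranged from 86.1 to 111 (0.16) and Rps29 from 681 to 888 (0.15). Least variable were Rps10 (171 to 192 FPKM; SD 0.06), Rps9 (195 to 221; 0.06), Rpl4 (347 to 404; 0.07), Rpl6l (0.07) and Rps2 (288 to 337; 0.07). Rps9 and Rps2 sit near the messenger RNA entry site of the small subunit.

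What the genes shared between libraries was a low level in replicate 4. Of the 81 genes 67 (82.7%) had their lowest value there, against 20.1% of the 12052 genes kept. By subunit these were 24 of 32 small and 43 of 49 large subunit genes. In replicate 4, 77 of the 81 lay below their own median of the 7 libraries, against 46.8% of all genes. The median deviation from the gene's own median, on log2(FPKM + 1), was -0.19 in replicate 4, a difference of -12.6% in FPKM + 1. The next lowest was -0.07 in replicate 1, where 10 genes were lowest (9.06% of all genes) and 75 lay below their own median, against 40.2% of all genes. Replicates 2, 3, 6 and 7 held the lowest value of 1 gene each, against 16.8%, 10.7%, 9.76% and 7.64% of all genes, and replicate 5 of 0, against 26.0%. The deviation was 0.07 in replicate 3, 0.05 in replicate 5 and 0 in replicates 2, 6 and 7. Over all genes kept it was 0 in each library, a value that a median over deviations from medians tends to take. With each library rescaled to the same total the deviation in replicate 4 was -0.12, with 59 genes lowest there. That library had the smallest sum of FPKM, 327826 against 339204 to 353622. With mitochondrially encoded genes left out of the total it was -0.15, with 65.

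The highest values fell mainly in 2 libraries. Replicate 3 held the highest value of 29 genes, against 15.1% of all genes, and replicate 5 of 28, against 21.1%. Replicate 2 followed with 12, against 11.7%, and replicate 1 held 0, against 9.08%. Replicates 7, 6 and 4 held 7, 4 and 1, against 12.9%, 14.4% and 15.6%. Libraries differed in markers of other tissue. In replicate 5, 10 striatal markers, 6 of them with a median of at least 1 FPKM, summed to 1562 FPKM, and to 46.2 to 57.4 elsewhere, and the 13 hippocampal markers to 267 against 398 to 489. All 13 hippocampal markers had a median of at least 1 FPKM. In replicate 3, 8 choroid plexus markers, 4 of them with a median of at least 1 FPKM, summed to 858 FPKM. The 6 thalamic markers, all with such a median, summed to 80.3 there. Replicate 7 was as far off, at 1120 and 80.1, and the other libraries had 25.9 to 252 and 23.3 to 44.9. The part of these markers in the counts of highest values was not tested. Without replicate 5, 67 genes were lowest in replicate 4, against 23.0% of all genes, and 41 were highest in replicate 3, against 18.2%.

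**Figure D3:**
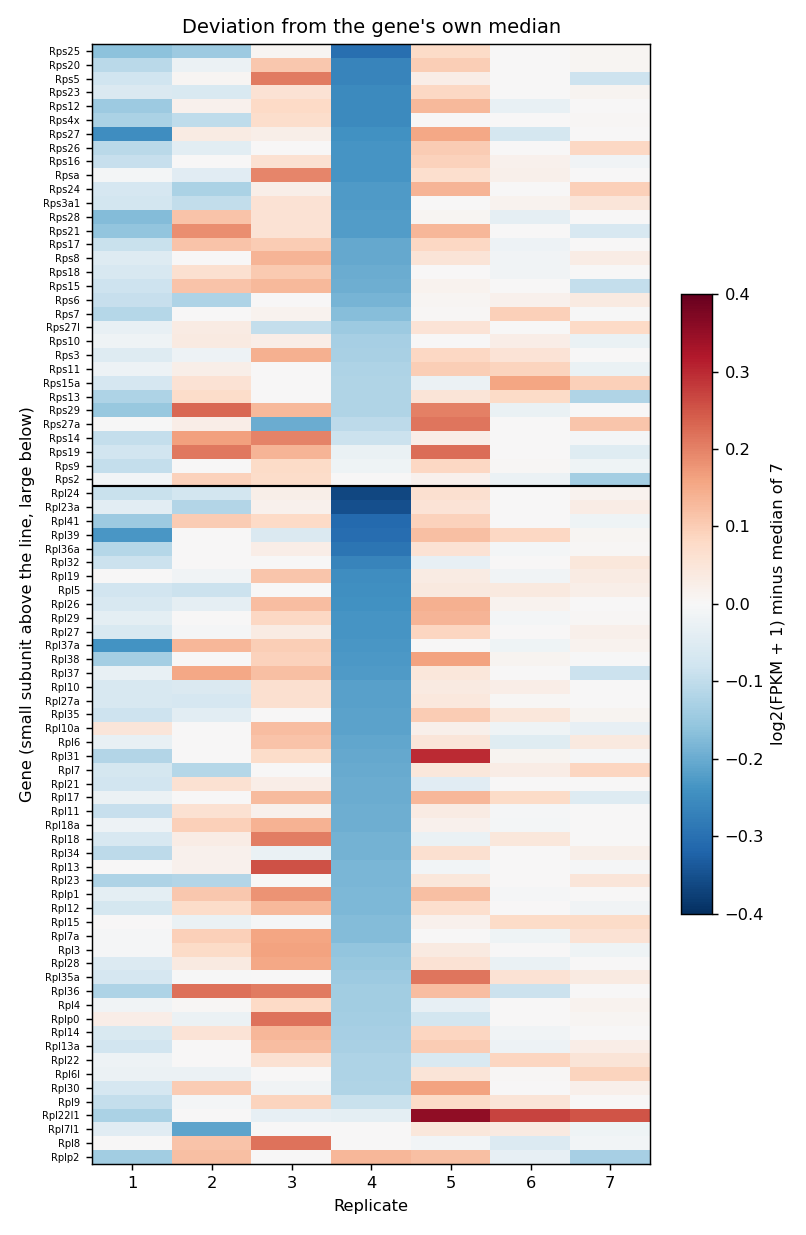
Deviation of 81 ribosomal protein genes from their own median over 7 libraries, in log2(FPKM + 1), with genes in rows (small subunit above the line, large below) and replicates in columns. Blue is lower and red higher, and in replicate 4 77 of 81 genes lie below their median while Rplp2, at the bottom, is above it.

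By subunit, the median deviations of small and large subunit genes were -0.20 and -0.19 in replicate 4, -0.09 and -0.07 in replicate 1, 0.06 and 0.08 in replicate 3, and 0.07 and 0.05 in replicate 5. Across the 7 libraries the median Pearson r was 0.682 among pairs of small subunit genes, 0.757 among large and 0.723 between the subunits. Without replicate 4 these were 0.481, 0.478 and 0.480. The coefficients describe these libraries, since all pairs share the same 7 libraries and their scaling.

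Some genes departed from the common pattern. After the library's median deviation was taken off, the SD of a gene had a median of 0.06, and was largest for Rpl22l1 (0.17), Rplp2 (0.16) and Rps27a (0.14). Rps27a, which is made as a fusion with ubiquitin, had its lowest value in replicate 3 (182 FPKM) and its highest in replicate 5 (243). Rpl7l1 had 15.6 FPKM in replicate 2 and 17.6 to 18.8 elsewhere. Rpl8 and Rps2 were lowest in replicates 6 and 7, at 262 and 288, and near their medians in replicate 4, at 273 and 316. Rplp2 and Rpl7l1 had a median r with the other genes of -0.12 and 0.00039. Rps27a and Rpl8 were named after their values were seen.

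Other genes of translation were read in the same way, from lists that were chosen with earlier results of these data known. Of 14 genes for elongation factors and other TOP-type messages, 8 (57.1%) were lowest in replicate 4, with a median deviation of -0.13. Among them Fau, which encodes a small subunit protein as a fusion with a ubiquitin-like protein, had 184 FPKM in replicate 4 and was lowest there. So was Rack1, a scaffold on the small subunit, at 141 (up to 188 in replicate 3). The elongation factor genes were divided. Eef1a1 and Eef1b2 were lowest in replicate 4, at 1556 and 67.2 FPKM. Eef2 (351, median 338) and Eef1d (22.7, median 21.3) were above their medians there. Eef1g, a subunit of the elongation factor exchange complex, ranged only from 136 to 142 and was highest in replicate 4. So was Pabpc1, at 55.5. Nap1l1, a histone chaperone, ranged from 44.0 to 57.9. Eef1a1, Eef1b2, Eef2, Eef1d and Pabpc1 were named after their values were seen.

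Ribosome assembly and initiation factor genes had smaller deviations. Of 18 assembly genes 7 (38.9%) were lowest in replicate 4, with a median deviation of -0.05. Nop10, of the pseudouridylation complex, ranged from 43.9 to 62.7 FPKM and Nop58, of the methylation complex, from 13.4 to 17.7. Tsr1, of small subunit assembly, ranged from 13.1 to 14.6. Of 47 initiation factor genes 18 (38.3%) were lowest there, with a deviation of -0.03. Outside cytosolic translation the counts were 47 of 78 mitochondrial ribosomal protein genes (60.3%; -0.13) and 58 of 82 nuclear genes of the respiratory chain (70.7%; -0.18). Of the 13 mitochondrially encoded genes 8 (61.5%) were lowest there, with a median deviation of -0.24, larger in size than the -0.19 of the ribosomal protein genes. Whether the ribosomal protein genes differed from these lists was not tested.

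**Figure D4:**
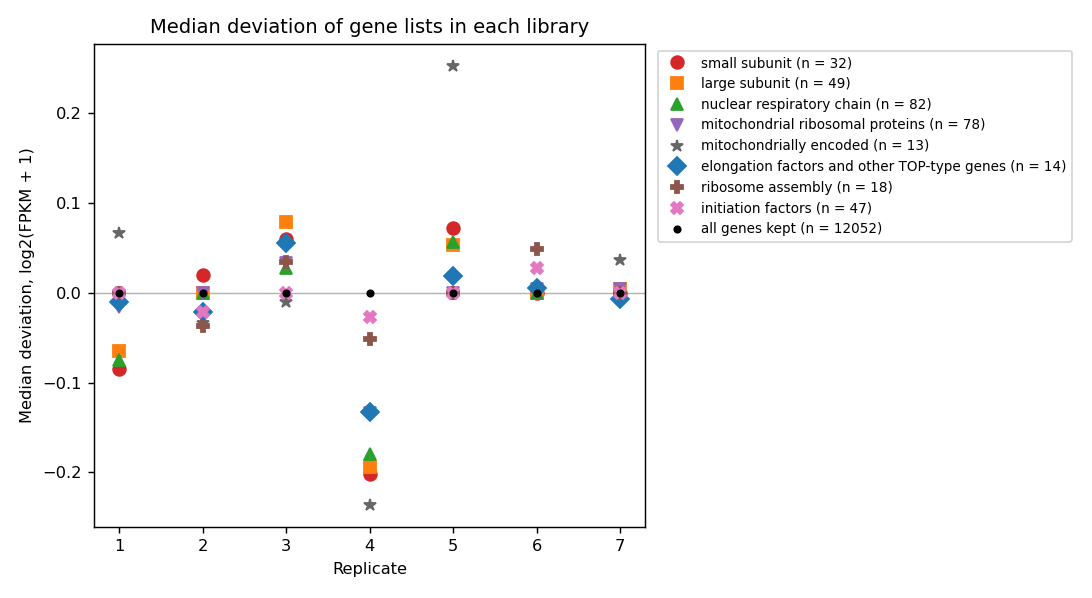
Median deviation of each gene list from the genes' own medians, in log2(FPKM + 1), in replicates 1 to 7, with 1 symbol per list. In replicate 4 the mitochondrially encoded genes (-0.24) are lowest, followed by the small and large subunit genes (-0.20 and -0.19) and the nuclear respiratory chain genes (-0.18), and the initiation factor genes (-0.03) are nearest to all genes (0).

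Ribosomal protein messages are short, and among other genes the share lowest in replicate 4 moved with length. The median spliced length, from GENCODE M21 coding transcripts, was 704 bases for the 80 of 81 genes that have one, against 2249 over all genes kept. Among other genes the share lowest in replicate 4 was lower in longer genes, from 34.0% under 1000 bases to 25.6% from 1000 to under 2000, 15.1% from 2000 to under 4000 and 6.86% at 4000 or more. Of the 154 other genes under 1000 bases with a median of at least 100 FPKM it was 50.0%, with a median deviation of -0.11. Among ribosomal protein genes it was 77.8% in the 27 shortest, 84.6% in the 26 of middle length and 85.2% in the 27 longest, with deviations of -0.20, -0.19 and -0.20. The part of length in the low level of replicate 4 was not tested. No error was computed for the differences between the estimated depths given above, so the libraries were not ranked by depth. The 13 hippocampal markers summed to 481 in replicate 4, within the range of the others. Leaving replicate 5 aside, its 5 blood markers had the lowest sum (142 FPKM, against 151 to 288) and its striatal markers the highest (57.4, against 46.2 to 55.1). Its 8 microglial markers summed to 148, against 152 to 188 elsewhere. The part of these markers was not tested.

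**Figure D5:**
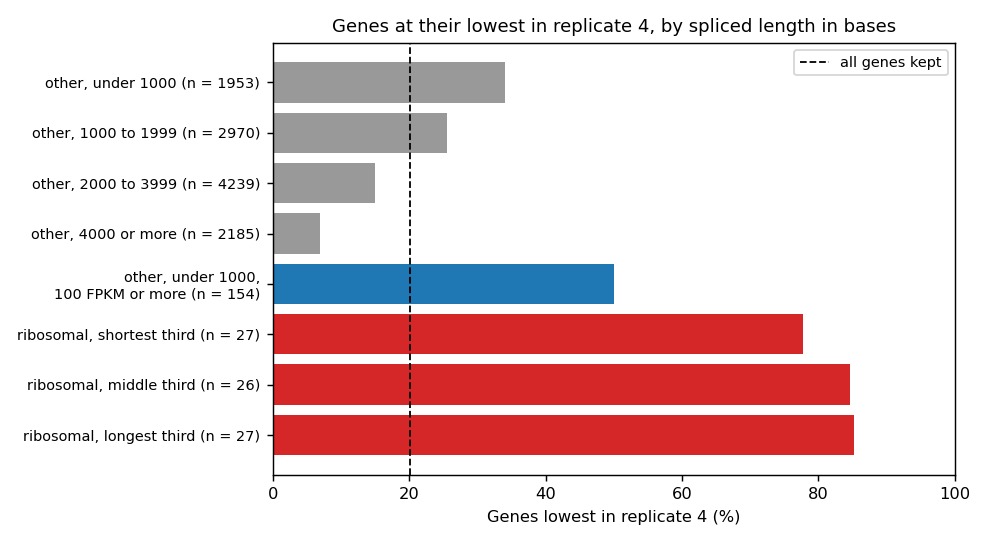
Percent of genes whose lowest value of 7 is in replicate 4, for other genes by spliced length in bases (grey), for other genes under 1000 bases with a median of at least 100 FPKM (blue) and for ribosomal protein genes by length (red). The dashed line is the 20.1% of all genes kept, the red bars stand at 77.8% to 85.2%, the blue bar at 50.0%, and the grey bars at 34.0% to 6.86%.

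In replicate 1, deviations were larger for the shortest ribosomal protein genes. The 27 shortest genes had a median deviation of -0.10 there, against -0.07 and -0.06 in the middle and longest sets. Examples, chosen after their values were seen, are Rps29 (681 FPKM in replicate 1, median 757) and Rpl37a (223, median 263). Others are Rps21 (277, median 309) and Rps28 (194, median 219). Their highest values, all in replicate 2, were 888, 288, 352 and 237 FPKM. In replicate 5 the order was the opposite, at 0.10 for the shortest and 0.05 and 0.04 for the others.

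The genes are spread over the genome and many host small RNAs. The 84 lie on 19 chromosomes, with at most 14 on 1 of them (chromosome 7), and 4 on the X chromosome: Rpl10, Rpl36a, Rpl39 and Rps4x. An annotated snoRNA, a small RNA that guides modification of ribosomal RNA, lies within 30 of the 81 genes kept (37.0%) on the same strand. The same holds for 1.6% of 11347 other protein-coding genes kept. Rpl4 holds 5 of them.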

How the data were processed

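Total RNA of 7 hippocampus samples was sequenced after SMARTer library construction, as the labels' protocols state. FPKM values of 27583 genes were deposited by the authors, with the unit taken from the table's own name. Genome build, per the submitters' processing notes, was mm10. Aligner, counter, annotation and filters: not given in the sources used here. Columns were matched by library name. Values were used as deposited, and deviations and SDs on log2(FPKM + 1) over the 12052 genes whose median reached 1 FPKM. The scale understates differences of low genes. The ribosomal protein genes and lists were chosen with earlier results of these data known. No label gives separate animals, so p-values speak of the spread among samples, perhaps a technical one. Depth was estimated from 543 genes seen in 1 library only, with GENCODE lengths. Differences in depth between libraries came from ratios of FPKM values to replicate 1. Of the single estimates 38.5% lay within 10% of the median, so reads are approximate. Depth estimates and counting errors cover counting only. Named genes are the 5 highest, 5 lowest, 5 most and 5 least variable genes with a median of at least 10 FPKM, paralogs, stalk genes, genes under 10 FPKM, genes with printed sequences and genes with 1 library far from the rest, with Fau and those said to be chosen after their values were seen. Motifs came from RefSeq starts (GRCm38.p6). The scripts were tested on simulated data. Alternatives were 4 other scalings of the libraries, a pseudocount of 0.1, other filters and left-out libraries. Python 3.11.15, numpy 2.4.6, pandas 2.3.3 and matplotlib 3.10.9 were used.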

Additional observations from a re-analysis of the deposited data

Results flagged for a closer look

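For each of the 81 genes, and for the median deviation of all of them and of each subunit, the gap between the extreme library and its neighbour was divided by the range of the 7 values. The ratio was above Dixon's critical value, which chance passes in about 1 in 20 groups, for 7 of the 84 results. All 7 were single genes. The median deviations did not pass, the low one in replicate 4 included. The lowest library stood apart in replicate 4 for Rpl15 (0.571; 77.0 FPKM against 85.5 to 91.8), Rpl19 (0.618; 106 against 125 to 136), Rpl24 (0.609; 220.0 against 266 to 296) and Rps10 (0.607; 171 against 184 to 192). It stood apart in replicate 2 for Rpl7l1 (0.631; 15.6 against 17.6 to 18.8). The highest library stood apart in replicate 3 for Rpl13 (0.578; 426 against 314 to 361) and for the stalk gene Rplp0 (0.569; 223 against 175 to 195).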

How the results depend on the processing

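Median-ratio scaling left all 13 of its values as deposited and so tests nothing. Of 172 values under the other alternatives, 170 counted as unchanged. The other 2 came from leaving out replicate 4. The median SD of the genes was then 0.0743 (0.0743 to 0.115 over the 7 left-out libraries). The genes lowest in replicate 1 numbered 50 in place of 10, a setting added after seeing the data. Unchanged meant within 1.5 times for counts, and the same sign with an adjusted p of at most 0.05 for pairs. For deviations and the subunit ratio it meant a change below their SD over the 7 libraries. For the median SD it meant a change below the SD of that value over genes. The limit is wide for deviations: small ones could change sign within it, and -0.12 in place of -0.19 in replicate 4 passed. The count lowest in replicate 4 was 59 to 68 under the other alternatives, and the ratio of small to large subunit medians 1.24 to 1.28. All 7 paralog pairs passed with a pseudocount of 0.1 and with each library left out, the alternatives run for them, and with 6 libraries the exact test cannot go below p = 0.0312. No scaling moved the median of all genes by more than about 0.03 (log2). No paired analysis between samples was possible because all samples form 1 group. The paralog tests paired genes within each library. Genes near 0, such as Rpl39l and Rpl3l, rest on too few reads to compare libraries.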
